A study of Mus musculus with 18 samples.

Results

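Hox genes code for homeodomain transcription factors that give cells their position along the head to tail axis of the embryo. In the middle portion of mouse embryos at embryonic day 9.5 they were read by 38 probe sets, out of 13057 measured once control probe sets were left out. These stand for 31 of the 6581 genes named on the arrays. A probe set is a group of short oligonucleotides whose brightness is read as 1 value. Each one whose annotated symbol began with Hoxa, Hoxb, Hoxc or Hoxd and a digit was taken, also where several Hox symbols stood together. These 38 probe sets covered 30 Hox genes and Hoxa11os, an antisense RNA of the Hoxa cluster. Of them, 15 lay on the first array type and 23 on the second, called type a and type b here. For 3 probe sets the annotation gave Hoxd3 and Hoxd4 together, and for 2 it gave Hoxd9 and Hoxd10 together, so their signal cannot be assigned to 1 gene.

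Total RNA came from the middle one of 3 parts of each embryo, and embryos carried 0, 1 or 2 mutant copies of Nkx2-5, a homeodomain factor of the developing heart that is also called Csx (wild type, heterozygous and homozygous mutant). Each genotype was hybridised to 3 arrays of each type, 18 arrays in all, and no treatment was given in the labels. Replicates keep their label numbers. Wild type has 1, 5 and 7, heterozygous has 3, 4 and 8, and homozygous mutant has 2 and 6. The remaining homozygous mutant array is 8 on type a and 9 on type b. These are called 8a and 9b, since the labels do not say whether they hold the same RNA. No allele, strain or somite stage is given, nor whether RNA was pooled over embryos. The spread behind every p-value is thus that between these samples and may be partly technical.

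Mouse Hox genes stand in 4 clusters, a to d, and are numbered by their place in the cluster. Genes of low paralogue number are turned on first and reach furthest forward, into the hindbrain and neck, whereas those of high number come on later and mark the trunk, the tail and the distal limb. The order of the genes along the chromosome thus matches the order of their domains along the body, and the set of Hox genes a tissue expresses reads out its axial level. Retinoic acid and the Cdx factors help to start Hox transcription, polycomb and trithorax proteins keep it off or on, and Pbx and Meis proteins bind DNA together with Hox proteins.

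A floor of 2 times the noise was set, at an intensity of 375.1 for type a and of 523.1 for type b. Values under it were raised to it for fold changes and tests, while array values, means and their SDs are given as deposited. On type a 54.5% to 57.8% of an array's probe sets exceeded it, and for type b the range was 38.6% to 44%. The number of arrays limits the precision of every comparison. The genotype labels could not be checked through Nkx2-5, since no probe set carried its symbol. Arrays 8a and 9b stood apart in RNA quality: the 3' to 5' signal ratio of actin was 2.5 and 2.28 there, against 0.967 to 1.41 and 0.849 to 1.4 on the other arrays of each type. Wild type 1, heterozygous 4 and homozygous mutant 2 stood apart in Afp, the fetal albumin of liver bud and yolk sac, with 1257 to 1775 on type a against 90.6 to 233.8 elsewhere. Both are given below beside the Hox values of these arrays, and their part in those values was not tested. Heterozygous 8 of type b lacked 499 values, none of them of a Hox probe set.

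The promoters of 4 genes on which the results turn are shown first: Hoxb1, the most anterior gene of its cluster, which marks a hindbrain segment, Hoxb4, which marks the hindbrain and spinal cord behind it, and the neighbours Hoxd3 and Hoxd4. Each line gives the 250 bases before the start of the gene on the + strand, from RefSeq on build GRCm38.p6. The windows are chr11:96365508-96365757, chr11:96318017-96318266, chr2:74711743-74711992 and chr2:74721728-74721977 in that order. Capitals mark matches on either strand to TGATNNAT, the form bound by Hox and Pbx together, to AGGTCA, the core of a retinoic acid receptor site, to TTTATG, a form bound by Cdx factors, or to TNAAGTG, a form bound by Nkx2-5.
Hoxb1: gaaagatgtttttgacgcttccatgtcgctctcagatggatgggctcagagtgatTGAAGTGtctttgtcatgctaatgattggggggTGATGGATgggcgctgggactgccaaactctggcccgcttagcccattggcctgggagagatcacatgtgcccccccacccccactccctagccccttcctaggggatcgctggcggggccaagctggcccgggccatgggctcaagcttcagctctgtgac
Hoxb4: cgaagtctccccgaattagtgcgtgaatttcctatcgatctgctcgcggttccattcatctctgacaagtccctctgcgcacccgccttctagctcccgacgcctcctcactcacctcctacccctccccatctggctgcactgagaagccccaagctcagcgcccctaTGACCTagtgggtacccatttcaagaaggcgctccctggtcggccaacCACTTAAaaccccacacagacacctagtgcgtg
Hoxd3: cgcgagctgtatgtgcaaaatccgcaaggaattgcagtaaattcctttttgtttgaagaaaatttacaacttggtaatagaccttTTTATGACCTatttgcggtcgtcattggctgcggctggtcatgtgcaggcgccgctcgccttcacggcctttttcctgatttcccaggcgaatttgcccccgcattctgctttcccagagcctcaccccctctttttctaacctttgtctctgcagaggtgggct
Hoxd4: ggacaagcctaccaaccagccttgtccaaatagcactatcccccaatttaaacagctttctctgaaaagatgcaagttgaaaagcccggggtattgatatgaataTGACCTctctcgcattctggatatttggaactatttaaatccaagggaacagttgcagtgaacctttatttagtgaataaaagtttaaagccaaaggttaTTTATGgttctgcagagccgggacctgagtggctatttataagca
Hoxb1 held TGATGGAT 162 bases before the start and TGAAGTG 195 bases before it, both on the + strand. In Hoxb4 the receptor core (TGACCT as printed) lay 81 bases before the start and the Nkx2-5 form (CACTTAA as printed) 33 bases before it, both read from the opposite strand. Hoxd3 and Hoxd4 each held the receptor core and TTTATG. In Hoxd3 they lay 161 and 165 bases before the start and overlapped, and in Hoxd4 they lay 145 and 45 bases before it. Over the 32851 windows of this length in the table, TGATNNAT occurred in 7.68%, AGGTCA in 14%, TTTATG in 10.8% and TNAAGTG in 10.1%. Of the 31 symbols 20 had an entry in the table. A match describes the letters and is not evidence of binding.

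Probe sets of low paralogue number passed the floor most often. A probe set was tested where at least 3 of the 9 arrays of its type were above the floor, and 23 of 38 Hox probe sets (60.5%) met this, against 6935 of 13057 (53.1%) of all. Of those of paralogues 1 to 4, 12 of 13 were tested, of paralogues 5 to 8, 6 of 10, and of paralogues 9 to 13, 5 of 14. The bands are spread unevenly over the array types, whose floors differ: 8 of 13 probe sets of paralogues 1 to 4 lay on type a and 11 of 14 of paralogues 9 to 13 on type b. Within type b 4 of 5, 4 of 7 and 4 of 11 were tested from the anterior to the posterior band, and within type a 8 of 8, 2 of 3 and 1 of 3. Probe sets also differ in how brightly they read a gene, so these shares do not rank the genes. Hoxd1 was the exception among paralogues 1 to 4, with a highest value of 256. Hoxa2, Hoxb3, Hoxb5, the type b probe set of Hoxb4, a pair of the Hoxd3 and Hoxd4 probe sets and 1 probe set each of Hoxb1 and Hoxd12 were above the floor on all 9 arrays.

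Several middle and posterior Hox genes gave no signal above the floor on any array. These were Hoxa6, Hoxc6, Hoxa7, Hoxa9 (both probe sets), Hoxa10, Hoxd11, Hoxb13, Hoxd13 and both probe sets of Hoxd9 and Hoxd10. Among them Hoxa7, Hoxd11 and 1 probe set of Hoxd9 and Hoxd10 were negative on every array, which shows only that background exceeded signal there. Hoxa11os was above the floor on 2 arrays, with 584 in wild type 5 and 609 in heterozygous 4, and was not tested. Probe sets of 1 gene did not always match: Hoxc5 and Hoxd12 each had a probe set that passed and another that was never above the floor, with highest values of 323 and 92.9.

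**Figure D1:**
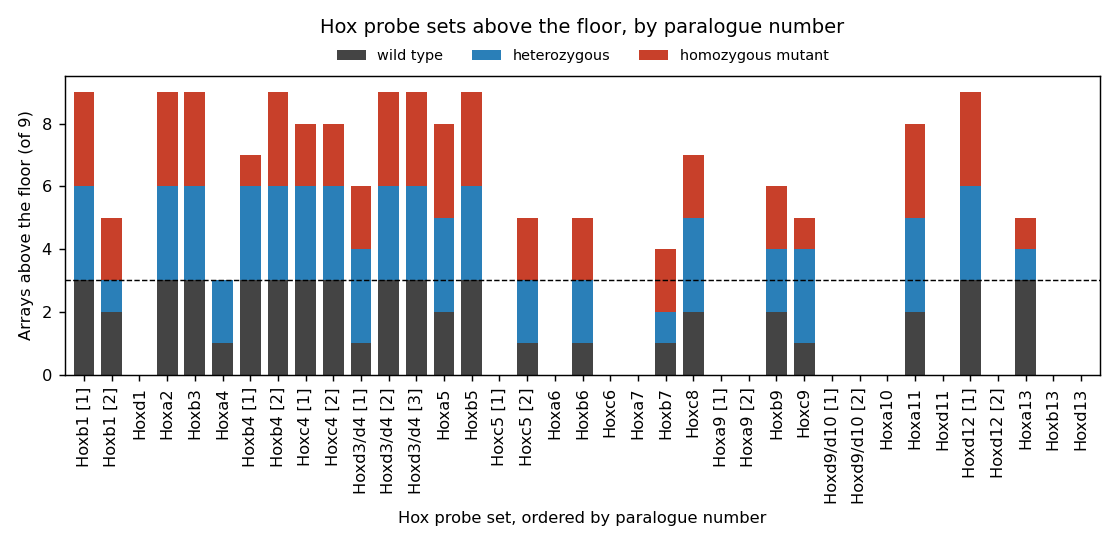
Number of arrays above the floor (of 9, y axis) for each of the 37 Hox probe sets other than Hoxa11os, ordered by paralogue number, with bars stacked by genotype and the dashed line at the 3 arrays needed for a test. Of paralogues 1 to 4, 12 of 13 probe sets reach the line, against 5 of 14 of paralogues 9 to 13, and numbers in brackets tell probe sets of 1 gene apart.

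The posterior genes that did pass were Hoxb9, Hoxc9, Hoxa11, Hoxd12 and Hoxa13. Hoxa11, which patterns the forearm and the kidney duct, read 1177, 472 and 644 in wild type, 1097, 1692 and 807 in heterozygotes and 994, 785 and 1741 in homozygous mutants, in the replicate order given above. It was above the floor on 8 of 9 arrays. Hoxd12, a gene of the distal limb, read 946, 948 and 765 in wild type, 732.5, 809.8 and 821 in heterozygotes and 526, 977 and 845 in homozygous mutants. Its 3 genotypes overlapped, and the second Hoxd12 probe set gave no such signal. Binding of related transcripts to these posterior probe sets was not tested.

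Markers of the ends of the embryo were mostly low. Of 9 measured genes of the head and anterior brain 3 were tested (Rax, En2 and Barx1), of 7 of the tail bud 2 (Cdx2 and Nkx1-2), and of 4 of the limb fields 1 (Pitx1). By contrast all 7 measured heart genes were tested, 6 of 9 somite genes, 6 of 9 neural tube genes, 5 of 7 liver bud and visceral endoderm genes and 6 of 7 blood genes. In such bulk RNA, fewer cells of a type and less RNA per cell cannot be told apart.

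Homozygous mutant against wild type addresses the effect of losing Nkx2-5, and no Hox probe set passed the test. The anterior gene Hoxb3 and the type a probe set of Hoxb4 had the lowest values in the homozygous mutants relative to wild type, each 1.76-fold lower. The type b probe set of Hoxb4 was 1.31-fold lower, whereas Hoxb1 had a higher mean that rested mainly on array 9b. limma called 0 of 23 Hox probe sets at an adjusted p under 0.05, against 48 of 6935 overall (0.692%). Without adjustment 3 of 23 had p under 0.05, all of them lower, where the background was 11.2% in either direction, 5.48% lower and 5.72% higher.

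Hoxb3, which acts in the hindbrain and the pharyngeal arches, read 911, 1264 and 793 in wild type, 1032, 1108 and 1183 in heterozygotes and 647, 624 and 413 in homozygous mutants. Every homozygous mutant array was below every wild-type array. The means were 989.5 ± 245 and 561 ± 129 (SD, n = 3 each), a log2 fold change of -0.82 (SE 0.277, 95% interval -1.43 to -0.211, limma adjusted p = 0.276). Array 8a gave the lowest value of the 9. Without it the log2 fold change was -0.61, and limma's adjusted p was 0.377.

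Hoxb4 was read once on each array type. On type a it read 847, 695 and 544 in wild type, 609.8, 877 and 586 in heterozygotes and 418, 315 and 168 in homozygous mutants. In the homozygous mutants only array 2 was above the floor, and the groups did not overlap. With 2 of the 3 under the floor, the fold change is understated. The means were 695 ± 151 and 300.3 ± 125 (SD, n = 3 each), with a log2 fold change of -0.81 (SE 0.239, 95% interval -1.34 to -0.291, limma adjusted p = 0.188), and -0.79 without array 8a. On type b it read 1237, 858 and 543 in wild type, 765, 889.9 and 661 in heterozygotes and 575, 814 and 544 in homozygous mutants, where the groups overlapped. That log2 fold change was -0.39 (SE 0.299, limma adjusted p = 0.688), so both probe sets pointed the same way with different sizes.

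Hoxa2, the selector of the second pharyngeal arch, read 798, 1222 and 701 in wild type, 1141, 997 and 885 in heterozygotes and 742, 644 and 562 in homozygous mutants. Homozygous mutant 2 lay above wild type 7, so the groups overlapped. Its log2 fold change was -0.45 (SE 0.275, limma adjusted p = 0.585).

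The probe sets shared by Hoxd3 and Hoxd4 gave unequal differences. Probe set u77364_g_at read 857, 1217 and 866 in wild type, 1122, 1075.5 and 1112 in heterozygotes and 769, 818 and 564 in homozygous mutants. All homozygous mutant values were below all wild-type values, at a log2 fold change of -0.45 (limma, SE 0.259, adjusted p = 0.561), or -0.29 without array 8a. Its partner u77364_at, which is named for the same sequence record, read 1008, 1289.5 and 1665 in wild type, 1250.3, 1251 and 2026 in heterozygotes and 850.3, 613 and 1725 in homozygous mutants. There array 8a was the highest of the homozygous mutants and the groups overlapped, with a log2 fold change of -0.42 (limma adjusted p = 0.753), or -0.84 without 8a (limma adjusted p = 0.308). The third, u03485_s_at, differed by -0.06 (limma adjusted p = 0.949).

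Hoxb1 gave log2 fold changes above 0 that rested mainly on array 9b. Probe set x53063_at read 1350.5, 2229.7 and 2449 in wild type, 1759, 1908 and 1867 in heterozygotes and 1884, 2486 and 4065 in homozygous mutants. The value of 9b was the highest of the 9, whereas homozygous mutant 2 lay inside the wild-type range. The means were 2010 ± 581 and 2812 ± 1130 (SD, n = 3 each), a log2 fold change of 0.46 (limma, SE 0.323, adjusted p = 0.666). The second probe set, x53063_g_at, is named for the same sequence record and read 542, 383 and 717 in wild type, 393, 581 and 347 in heterozygotes and 202, 784 and 1394 in homozygous mutants. There too 9b was the highest, and the log2 fold change was 0.50 (SE 0.301, limma adjusted p = 0.584). Without 9b these values were 0.15 and 0.12 (limma adjusted p = 0.883 and 0.874).

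Hoxc4 and Hoxa4 completed the anterior group. Hoxc4 on d11328_g_at read 665, 487 and 483 in wild type, 553, 640.0 and 932 in heterozygotes and 637, 507 and 317 in homozygous mutants. On both Hoxc4 probe sets the genotypes overlapped, with log2 fold changes of -0.48 and -0.12 (limma adjusted p = 0.69 and 0.918), or -0.13 and 0.08 without array 8a. Hoxa4 was above the floor on no homozygous mutant array and on 1 wild-type array, so no fold is given for it.

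**Figure D2:**
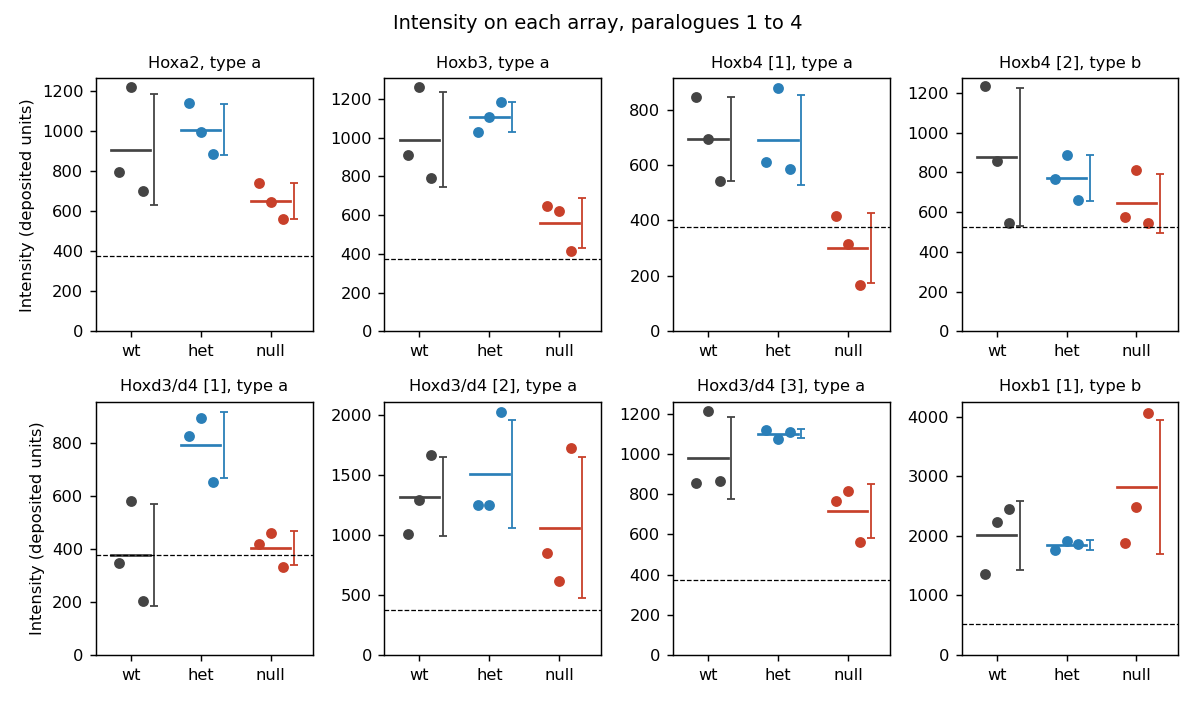
Deposited intensity (y axis, linear, from 0) on each array for 8 probe sets of paralogues 1 to 4, by genotype (wt wild type, het heterozygous, null homozygous mutant), with points for arrays, horizontal lines for means, bars for 1 SD (n = 3) and a dashed line for the floor. For Hoxb3 the homozygous mutants lie between 413 and 647 and the wild-type arrays between 793 and 1264, while for Hoxb1 array 9b stands above the rest at 4065.

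Paralogues 5 to 8 showed no common direction. Their 6 log2 fold changes ran from -0.17 for Hoxb7 to 0.48 for Hoxc5, with 3 below 0 and a median of 0.0018. Hoxb5, a gene of the cervical level, read 1519, 999 and 818.5 in wild type, 1315, 1217 and 1183 in heterozygotes and 1458, 1175 and 719 in homozygous mutants. Its genotypes overlapped, and the log2 fold change was -0.0038 (SE 0.32, limma adjusted p = 0.999).

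Among paralogues 9 to 13, 3 of 5 log2 fold changes were below 0, with a median of -0.22. Hoxa13, the gene of the hindgut end and the hand plate, read 609, 907 and 1035 in wild type, 188, 373 and 976 in heterozygotes and 171, 588 and 446 in homozygous mutants. No homozygous mutant value reached the lowest wild-type value. The means were 850.5 ± 219 and 402 ± 212 (SD, n = 3 each), with a log2 fold change of -0.61 (limma, SE 0.275, adjusted p = 0.443). Since 2 of the 3 homozygous mutant values were under the floor, this size depends on the floor. Hoxa11 gave 0.59 (limma adjusted p = 0.656) with overlapping groups, and 0.27 without array 9b.

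For paralogues 1 to 4 the log2 fold changes were below 0 in 10 of 12 probe sets, with a median of -0.41, whereas over all 6935 tested probe sets 53.1% were below 0 and the median was -0.02. The 12 probe sets include pairs and a triple that share a gene, and they passed the filter on these same arrays, so the count is a description. Groups did not overlap in the lower direction for 4 of 23 Hox probe sets (17.4%), against 8.19% of all tested, and in the higher direction for 0 of 23, against 7.24%. The median of paralogues 1 to 4 was -0.21 without arrays 8a and 9b, and -0.17 without wild type 1.

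Neural tube markers are given beside these values. Of the 9 measured genes 6 were tested, and all 6 had log2 fold changes below 0 in homozygous mutant against wild type (median -1.05). limma called 0 of them at an adjusted p under 0.05, against 0.692% of all tested, and 4 had unadjusted p under 0.05, against 11.2%. One of the 4, Neurog2, had all its homozygous mutant values under the floor. It passed the filter only through wild-type and heterozygous arrays, so its direction and p-value are only a description. Their summed intensity ran from 12770 to 18610 in wild type, from 13006 to 16497 in heterozygotes and from 5820 to 9447 in homozygous mutants, without overlap. The sum of 5820 joins arrays 8a and 9b, which stood apart in RNA quality and may not hold the same RNA. Hes5, Fabp7, Sox2 and Tubb3 had their lowest values there, whereas Nes and Neurog2 were lowest on homozygous mutant 6. The part of RNA quality in these sums was not tested. Sox1 and Sox3 were above the floor on no array. The part of these markers in the Hox values was not tested.

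Homozygous mutant against heterozygous gave the largest anterior Hox differences, again with none past the threshold. Hoxb3 was 2.01-fold lower in the homozygous mutants. The 3 probe sets of Hoxd3 and Hoxd4 were 1.89-fold, 1.52-fold and 1.56-fold lower, and the 2 of Hoxb4 1.75-fold and 1.21-fold. limma called 0 of 23 Hox probe sets, against 80 of 6935 overall (1.15%). Without adjustment 6 of 23 had p under 0.05, all of them lower and all of paralogues 1 to 4, against 15.7% in either direction, 8.51% in the lower direction and 7.21% in the higher. Hoxa4 is among these 6 but passed the filter only through heterozygous and wild-type arrays, so its p-value is only a description. This comparison shares the homozygous mutant arrays with the one against wild type, so it is not separate evidence.

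For Hoxd3 and Hoxd4, probe set u03485_s_at read 348, 581 and 202 in wild type, 826.5, 894.5 and 653 in heterozygotes and 417, 461 and 332 in homozygous mutants. The heterozygous values stood above all other arrays, and wild type and homozygous mutant overlapped. The heterozygous mean was 791 ± 125 and the homozygous mutant mean 403 ± 65.7 (SD, n = 3 each), with a log2 fold change of -0.91 (limma, SE 0.23, adjusted p = 0.0813). It was -0.84 with an adjusted p of 0.175 from limma without array 8a.

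Hoxb3 had the largest anterior difference in size, with a heterozygous mean of 1108 ± 75.3 (SD, n = 3) and a log2 fold change of -1.01 (SE 0.277, 95% interval -1.61 to -0.4, limma adjusted p = 0.11), or -0.80 without array 8a. Hoxb4 on type a gave -0.81 (SE 0.239, limma adjusted p = 0.131) and on type b -0.27 (limma adjusted p = 0.693). Of the other Hoxd3 and Hoxd4 probe sets, u77364_g_at gave -0.64 (SE 0.259, limma adjusted p = 0.263) and u77364_at gave -0.61 (SE 0.381, limma adjusted p = 0.467), or -1.03 without array 8a.

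Hoxa2 gave -0.64 (SE 0.275, limma adjusted p = 0.294), and its heterozygous and homozygous mutant arrays did not overlap. Hoxa4, a gene of the lower hindbrain and neck, read 556, 453 and 339 in wild type, 829, 919 and 500.4 in heterozygotes and 462, 292 and 368 in homozygous mutants. It was above the floor in heterozygous 3 and 4 and in wild type 1, and in no homozygous mutant, so it was at least 1.41-fold lower there (limma adjusted p = 0.266). It passed the filter only through those 3 arrays, so its p-value is only a description. Hoxb1 was again higher on average, at 0.53 and 0.62 for its probe sets (limma adjusted p = 0.447 and 0.36), and at 0.23 and 0.24 without 9b.

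**Figure D3:**
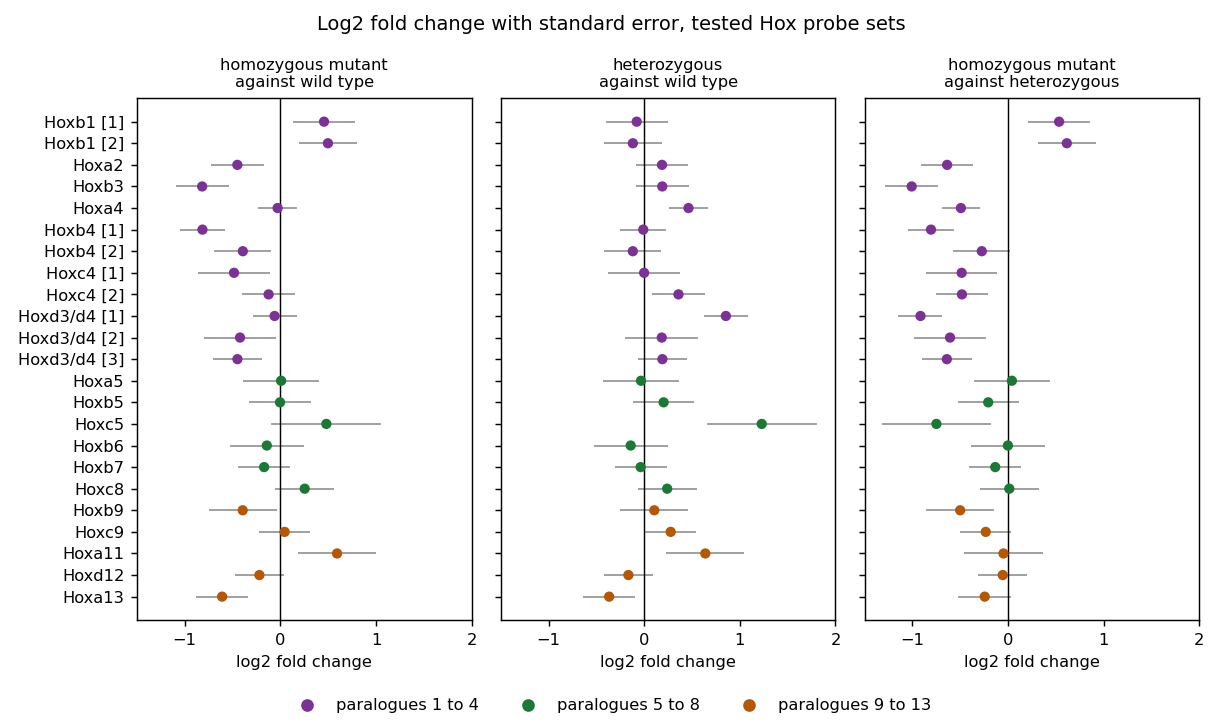
Log2 fold change (x axis, points) with its standard error (bars) for the 23 tested Hox probe sets, ordered by paralogue number, in each of the 3 genotype comparisons, coloured by paralogue band. In homozygous mutant against heterozygous 10 of 12 points of paralogues 1 to 4 lie below 0, reaching -1.01 for Hoxb3, while both Hoxb1 points lie above 0.

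Groups did not overlap in the lower direction for 5 of 23 Hox probe sets (21.7%), against 12.6% of all tested, and in the higher direction for 0, against 9.99%. The lower ones were Hoxa2, Hoxb3, Hoxb4 on type a and 2 of the Hoxd3 and Hoxd4 probe sets. For paralogues 1 to 4 the median of the log2 fold changes was -0.55, and 10 of 12 were below 0. The medians were -0.07 for paralogues 5 to 8 and -0.23 for paralogues 9 to 13, with 4 of 6 and 5 of 5 below 0. Over all tested probe sets the median was -0.07, and 57.6% were below 0. Beside them Hes5, a Notch target of neural progenitors, fell by 1.26 on the log2 scale (SE 0.245, limma adjusted p = 0.0335). The somite gene Pax1 fell too, with all its homozygous mutant values under the floor (limma adjusted p = 0.0335). It passed the filter only through wild-type and heterozygous arrays, so its p-value is only a description. Hes5 and Pax1 were each the 1 call among the 6 tested genes of their list, where 1.15% of all tested were called. Of the 6 tested somite genes 5 had log2 fold changes below 0 (median -0.23). The other 4 lower ones and Meox1 are named after their values were seen. Dll1 gave -0.81 (SE 0.296, limma adjusted p = 0.212) and Pax3 -0.295 (limma adjusted p = 0.638). Tcf15 and Foxc2 gave -0.16 and -0.03 (limma adjusted p = 0.829 and 0.974). Only Meox1 stood higher, at 0.64 (SE 0.275, limma adjusted p = 0.294). The part of neural and somite tissue in the Hox values was not tested.

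Heterozygous against wild type compares embryos with 1 mutant copy and with 0, and again no Hox probe set passed. limma called 0 of 23 Hox probe sets and 0 of 6935 overall (0%). The smallest adjusted p of any Hox probe set was 1. Without adjustment 2 of 23 had p under 0.05, both higher, where the background was 1.70% in either direction, 1.27% higher and 0.433% lower. Of these 2, Hoxa4 passed the filter only through heterozygous 3 and 4 and wild type 1, so its p-value is only a description.

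The smallest unadjusted p belonged to u03485_s_at of Hoxd3 and Hoxd4, whose heterozygous values of 653 to 894.5 all exceeded the wild-type values of 202 to 581. Its log2 fold change was 0.85 (SE 0.23, 95% interval 0.349 to 1.36, 1.81-fold, limma adjusted p = 1), which is understated because wild type 1 and 7 were under the floor. It was the 1 Hox probe set of 23 whose groups did not overlap in the higher direction, a share of 4.35% that is near the 3.73% of all tested, and 0 of 23 did so in the lower direction, against 2.64%. The other Hoxd3 and Hoxd4 probe sets gave 0.18 and 0.19, so the size did not carry over to them. Hoxa4 gave 0.46 (SE 0.2).

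Hoxc5, whose product marks the neck and upper trunk, read 710.4, 399.8 and 279.8 in wild type, 1263, 3789 and 394 in heterozygotes and -269, 1060.4 and 952 in homozygous mutants. Heterozygous 4 was far above the rest, and heterozygous 8 lay in the wild-type range. Its log2 fold change of 1.23 (SE 0.574, 95% interval -0.0337 to 2.49) was 0.49 without heterozygous 4 and 1.92 without heterozygous 8. The band medians were 0.18, 0.08 and 0.11 for paralogues 1 to 4, 5 to 8 and 9 to 13, beside 0.03 over all tested probe sets. That of paralogues 1 to 4 was 0.065 without wild type 7, 0.093 without heterozygous 3 and 0.12 without heterozygous 8.

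Spread between replicates of 1 genotype was larger for Hox probe sets than for all tested ones. The median SD within genotypes was 0.403 on the log2 scale over the 23 Hox probe sets and 0.304 over all 6935. These medians were not matched for intensity, and with a doubled floor 9 Hox probe sets were left tested. The part of low signal in this difference was not tested. A replicate was counted as standing apart for a probe set where it was at least 1.5-fold beyond both other replicates of its genotype.

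Wild type 1 stood higher for 7 of 23 Hox probe sets (30.4%), against 4.41% of all tested. They were 1 of Hoxc4, then Hoxa5, Hoxb5, Hoxb6, Hoxb7, Hoxb9 and Hoxa11, so 4 of the 6 tested probe sets of paralogues 5 to 8 were among them. Hoxb6, a gene of the thoracic level, read 1426, 307 and -180.4 in wild type, 561, 484 and 991 in heterozygotes and 775, 716 and 518 in homozygous mutants. Wild type 1 was at least 2.73-fold above the other wild-type arrays, both under the floor, and wild type 7 was below 0. Hoxa5, a gene of the lung bud and neck, read 1000.1, 552 and 259 in wild type, 548, 847 and 417 in heterozygotes and 730.2, 736 and 391 in homozygous mutants, and wild type 1 was the highest of the 9. Hoxb9, of the lower thorax, read 959.6, 409.8 and 67.6 in wild type, 658, 744 and 270.0 in heterozygotes and 459, 299 and 377 in homozygous mutants. Its wild-type arrays spanned the whole range of the other genotypes. Hoxb7, the neighbour between them, read 947, 349.9 and 232 in wild type, 398, 283 and 877 in heterozygotes and 535, 650.1 and 508.5 in homozygous mutants, and again wild type 1 was the highest of its genotype.

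In the lower direction wild type 1 stood apart for 1 of 23 Hox probe sets (4.35%), near the background of 4.66%. This was x53063_at of Hoxb1, where it was 1.65-fold below the next. On the other Hoxb1 probe set it lay between wild type 5 and 7. The anterior gene Hoxb4 was highest in wild type 1 among wild-type arrays on both array types, so high values there were not confined to posterior genes. In the Hoxc cluster wild type 1 was the highest wild-type array for both probe sets of Hoxc4 and for Hoxc5. It was the lowest for Hoxc8 and Hoxc9, under the floor for both, and for Hoxc9 wild type 7 was under the floor too. The median deviation from the wild-type mean on wild type 1 was -0.10 for paralogues 1 to 4, 0.54 for paralogues 5 to 8 and 0.10 for paralogues 9 to 13. On wild type 7 the same medians were -0.18, -0.34 and -0.20, and on wild type 5 they were 0.03, -0.13 and 0.10.

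Wild type 1 was also an Afp-high replicate. The other Afp-high replicates were heterozygous 4 and homozygous mutant 2. Heterozygous 4 stood higher for 3 of 23 Hox probe sets, Hoxa5 and Hoxa11 as in wild type 1 and Hoxc5, against 1.94% of all tested. Homozygous mutant 2 stood higher for 0, against 2.84%, and lower for 3, Hoxc5, Hoxc8 and Hoxd12, against 3.72%. Hoxb6 and Hoxb7 were highest among heterozygotes in replicate 8, which had low Afp. The part of the liver bud in these values was not tested.

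Heterozygous 8 stood higher for 5 Hox probe sets (Hoxb6, Hoxb7, Hoxc8, Hoxa13 and 1 of Hoxd3 and Hoxd4), against 6.89%, and lower for 3 (Hoxa4, Hoxc5 and Hoxb9), against 9.18%. Hoxc8, which patterns the thorax and its motor neurons, read 368, 696 and 729 in wild type, 615, 631.5 and 1127 in heterozygotes and 449, 1002 and 859 in homozygous mutants. Its value on heterozygous 8 was the highest of the 9.

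Wild type 5 was higher for Hoxa2, Hoxc9 and 1 probe set of Hoxd3 and Hoxd4, against 6.46% of all tested, and wild type 7 was lower for Hoxb4 on type b, against 5%. Homozygous mutant 6 was higher for Hoxc9, against 4.50%. Hoxc9, of the lower thorax, read 157, 792.5 and 481 in wild type, 751, 897 and 572 in heterozygotes and 162, 869 and 216 in homozygous mutants. Wild type 5 and homozygous mutant 6 were each the highest of their genotype. In the directions not named so far 0 Hox probe sets stood apart, where the background was 3.58% for lower values in wild type 5, 3.59% for higher ones in wild type 7, 1.49% and 1.56% for higher and lower ones in heterozygous 3, 1.43% for lower ones in heterozygous 4 and 3.16% for lower ones in homozygous mutant 6.

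Arrays 8a and 9b stood higher for 4 Hox probe sets, against 6.82% of all tested, and lower for 4, against 12.0%. The higher ones were both of Hoxb1, 1 of Hoxd3 and Hoxd4, and Hoxa11. The lower ones were Hoxb3, 1 of Hoxc4, Hoxa5 and Hoxb5. Hoxc4 on d11328_at read 1372, 634 and 729.5 in wild type, 774, 759.9 and 1078 in heterozygotes and 792, 779 and 369 in homozygous mutants, with 8a 2.08-fold below the next homozygous mutant. On 8a and 9b the median deviation from the wild-type mean was -0.57 for paralogues 1 to 4, against -0.21 and -0.11 on homozygous mutant 2 and 6. The part of RNA quality in these values was not tested.

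**Figure D4:**
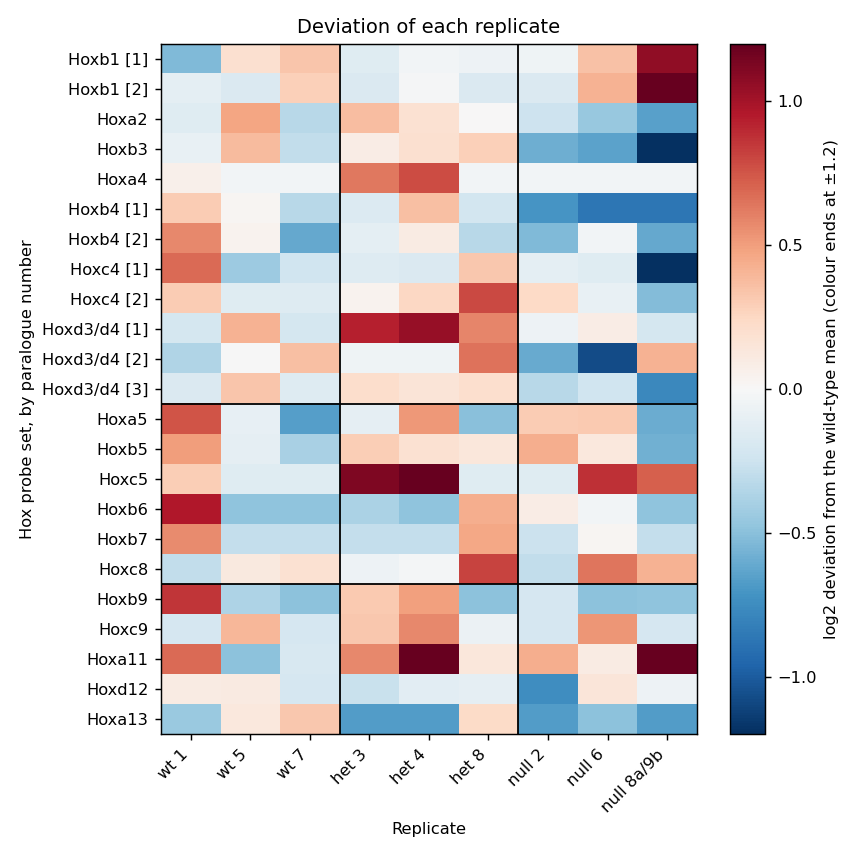
Log2 deviation of each replicate (columns) from the wild-type mean of the probe set, for the 23 tested Hox probe sets (rows, by paralogue number), with blue below and red above 0 and black lines between genotypes and paralogue bands. Wild type 1 is red over Hoxa5, Hoxb5, Hoxb6, Hoxb7 and Hoxb9, the homozygous mutants are blue over Hoxb3 and the type a (upper) row of Hoxb4, and 8a with 9b is red over Hoxb1. In the type b row of Hoxb4, homozygous mutant 6 is near 0.

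The number of Hox probe sets above the floor varied little between replicates for paralogues 1 to 4, from 10 to 12 of the 12 tested, except for 8a and 9b with 7. For paralogues 5 to 8 it ran from 2 in wild type 7 to 6 in homozygous mutant 6, and for paralogues 9 to 13 from 3 to 4. The SD of the band median within genotypes was 0.16, 0.335 and 0.219 from the anterior to the posterior band. A shift of the dissected level between genotypes was not tested apart from these values, since the labels give no landmark.

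The DNA-binding partners of Hox proteins gave no call. Of 5 measured Pbx, Meis and Pknox genes 4 were tested, and 0 passed limma's adjusted threshold in any of the 3 comparisons. Pbx2 read 602, 499.9 and 781 in wild type, 545, 801.5 and 1058 in heterozygotes and 395.5, 454 and 363 in homozygous mutants. All homozygous mutant values were the lowest, with log2 fold changes of -0.60 against wild type (SE 0.273, limma adjusted p = 0.443) and -0.93 against heterozygous (limma adjusted p = 0.131). Pbx3 gave -0.32 against wild type (limma adjusted p = 0.758). Unadjusted p was under 0.05 for 1 of the 4 against wild type and for 1 against heterozygous, where the background was 11.2% and 15.7%, and for 0 in heterozygous against wild type, where it was 1.70%.

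Of the genes listed as regulators of Hox onset, which include retinoid binding proteins and receptors, 5 of 12 measured were tested. In every comparison 0 passed, with 0 at unadjusted p under 0.05 against the same backgrounds. Cdx2, the caudal factor that turns on trunk Hox genes, read 579, 1584 and 1328 in wild type, 542, 1382 and 1317 in heterozygotes and 474, 1105 and 515 in homozygous mutants. It varied within each genotype, with a log2 fold change against wild type of -0.67 (SE 0.48, limma adjusted p = 0.67). Crabp2, which carries retinoic acid to its receptors, gave -0.19 against heterozygous (limma adjusted p = 0.598). Aldh1a2, which makes retinoic acid, was above the floor on 3 of 9 arrays and on no homozygous mutant array.

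Of the polycomb and trithorax genes 15 of 16 measured were tested, each at its brightest probe set, and 0 passed in any comparison. At unadjusted p under 0.05 there were 2 (homozygous mutant against wild type), 0 (heterozygous against wild type) and 3 (homozygous mutant against heterozygous). The background was 11.2%, 1.70% and 15.7% in that order. Jarid2, a partner of the polycomb methyltransferase, was higher in the homozygous mutants by 0.76 against wild type (SE 0.189, limma adjusted p = 0.119) and by 0.69 against heterozygous (limma adjusted p = 0.107). Its dimmer probe sets differed. On c79929_rc_g_at the homozygous mutants were above all other arrays, whereas on D31967_s_at the genotypes overlapped. The latter read 392, 62.9 and 693 in wild type, -44.5, -26.8 and 618 in heterozygotes and 249, 530 and 660 in homozygous mutants. Phc2, a subunit of the other polycomb complex, gave -0.54 against wild type (limma adjusted p = 0.327). Cbx2, which reads the polycomb mark, gave -0.64 against heterozygous (limma adjusted p = 0.172). Its dimmer probe set, left out of these counts, read 1101, 1401 and 2100 in wild type and 1533, 1863 and 2196.5 in heterozygotes. In homozygous mutants that probe set read 697, 848 and 967, below all other arrays. The median log2 fold changes of the 3 lists against wild type in the homozygous mutants were -0.13, -0.11 and -0.19, for cofactors, regulators of onset, and polycomb and trithorax in that order.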

How the data were processed

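Each deposited value is the intensity of a probe set on a linear scale, background-subtracted by the authors, as its negative values show (13.5% to 18.4% of those of type a, 25.6% to 27.7% of those of type b). Which software and scaling the authors used is not given in the sources used here. The scaling was kept, and 61 control probe sets per type were dropped. The platform annotation gave the symbols, brought up to date by gene identifier: 7542 probe sets had 1 symbol, 224 several and 5291 none. The noise SD, the median size of the negative values times 1.4826, was 187.5 for type a and 261.5 for type b. The floor was 2 times it. Lower values were raised to the floor before log2, so fold changes near it are understated. Where all arrays of a group are under the floor, a fold is a lower bound.

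limma 3.58.1 (lmFit and eBayes with trend, R 4.3.3) was fitted to all 9 arrays of each type, and p-values were adjusted by Benjamini-Hochberg over the 6935 tested probe sets of both types, 3969 on type a and 2966 on type b. An adjusted p under 0.05 was called. In data simulated for homozygous mutant against wild type with 6939 probe sets tested, 35 of 100 changed 2-fold and 77 of 100 changed 4-fold were called, with 6 unchanged ones. The changed ones were drawn from probe sets with a mean above 2 times the floor. Their shares thus do not describe dimmer probe sets, which include many of the Hox ones. Replicate numbers pair no samples. In each comparison the Hox probe sets of unadjusted p under 0.05 were named, or the 3 of smallest p, and of the other lists genes of adjusted p under 0.05 or, for cofactors, regulators and polycomb genes, the 2 of smallest p. A gene of these other lists was read at the brightest of its tested probe sets, so the counts of calls leave its other probe sets out. The Hox members, the gene lists and the rules were chosen with earlier results of these data known. Promoter windows came from a RefSeq table and were searched on both strands. Of the columns with values, 0 belonged to no sample. The alternatives were other scalings, floors, filters, transforms, variance models, adjustments and fits without single replicates.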

Additional observations from a re-analysis of the deposited data

How the results depend on the processing

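Under each of 20 alternatives, 19 of them planned, the number of Hox probe sets past the adjusted threshold of limma was 0 in all 3 comparisons. The log2 fold changes of the 12 named Hox results kept their direction in the 221 of 240 cases in which the probe set was still tested. In 19 it was not, under a doubled floor, a stricter filter or fewer arrays. These 12 were chosen for their small p on the same arrays, so the kept direction is not separate evidence. The median log2 fold change of paralogues 1 to 4 stayed below 0 in homozygous mutant against wild type and against heterozygous. When replicates were left out in turn, the medians of paralogues 1 to 4, 5 to 8 and 9 to 13 ran from -0.42 to -0.17, from -0.26 to 0.29 and from -0.34 to 0.043 in homozygous mutant against wild type. They ran from -0.67 to -0.48, from -0.21 to 0.0066 and from -0.30 to -0.082 in homozygous mutant against heterozygous. In heterozygous against wild type they ran from 0.065 to 0.23, from -0.087 to 0.34 and from -0.14 to 0.41. With the floor at the noise SD itself, the median of paralogues 5 to 8 in homozygous mutant against wild type was 0.35. With a doubled floor, which left 9 Hox probe sets tested, it was 0.19 for paralogues 9 to 13 in that comparison, 0.46 for paralogues 5 to 8 in heterozygous against wild type, and -0.44 and -0.0094 for paralogues 5 to 8 and 9 to 13 in homozygous mutant against heterozygous. With no filter on low signal the median of paralogues 9 to 13 was 0 in both comparisons of the homozygous mutants. Leaving out the Afp-high replicates, an alternative chosen after seeing the data, gave 0.066 for paralogues 9 to 13 against wild type, 0.46 for paralogues 5 to 8 in heterozygous against wild type, and -0.72 and 0.040 for paralogues 1 to 4 and 9 to 13 in homozygous mutant against heterozygous. No paired analysis was possible because the genotypes share at most 1 replicate number. Signal near background limits the posterior Hox genes most, and 15 of 38 Hox probe sets could not be tested.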
